A study of Arabidopsis thaliana with 17 samples.

Results

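Open chromatin of Arabidopsis thaliana flowers was compared with that of the developing seed coat through peaks of DNase I cutting, using 4 of the 17 samples and 4 of the 22 deposited peak lists. The flower side consists of 1 list from open flowers and 1 from unopened flowers, and the seed coat side of 1 list at 4 days past anthesis (DPA) and 1 at 7 DPA. All plants were of the Col-0 background and carried ACT2:birA, which places a biotin ligase under the actin promoter ACT2. With it went a nuclear tagging fusion (NTF), under the UBQ10 promoter in the flower plants (line UBQ10:NTF::ACT2:birA) and under the GL2 promoter in the seed coat plants (line GL2:NTF::ACT2:birA). The biotin on the fusion allowed tagged nuclei to be captured, so the flower lists describe nuclei of the whole organ and the seed coat lists the nuclei in which GL2 was active within whole siliques. Organ and driving promoter change together, and their effects cannot be told apart. The labels do not say how many plants went into a sample. They give 45 u of DNase I for both flower samples and the 7 DPA sample, and a range of 30 to 60 u for the 4 DPA sample.

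The lists differed greatly in depth, so each was limited to its 11693 highest peaks on the 5 nuclear chromosomes, the length of the shortest list, which was that of open flowers. These make up 100% of the open flower list, 89.6% of the unopened flower list, 86.1% of the 7 DPA list and 36.4% of the 4 DPA list. Peak height, the authors' signal per peak, had a median of 45 in open flowers, 17 in unopened flowers, 62 at 7 DPA and 1225 at 4 DPA. It was used only to rank peaks inside a list, as a percentile in which 100 is the highest peak. A stretch of 350 kb of chromosome 2, from 3.2 Mb on, was left out. Overlapping peaks were merged into 19707 sites. A site found in both flower lists and neither seed coat list is called flower-only below, and the converse seed coat-only. With 1 list per sample and 2 lists per organ, single sites are described and not tested, and site counts carry no replicate error.

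DNase I cuts DNA where nucleosomes have been displaced, mostly at promoters and enhancers bound by transcription factors, so a peak marks DNA that is accessible in many of the captured nuclei. A flower holds sepals, petals, stamens and carpels with ovules, some of them green and photosynthetic. The seed coat develops from the integuments of the ovule after fertilisation. Its outer layer fills with pectic mucilage under the control of GL2, TTG1, MYB5, MYB61 and AP2, and its inner layer makes proanthocyanidins, the brown tannins of the seed, through the flavonoid pathway. Tissues of one descent, the ovule and the seed coat, therefore lie on both sides of the comparison.

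The 8 sites below are examples from the results that follow. The first comes from the flower-only group around MYB21. The next pair carry motifs that were more frequent in flower-only than in seed coat-only sites. The last 5 lie at genes of regulators, an enzyme and a transporter of the seed coat. All are read from the reference sequence of TAIR10, and none touches an annotated exon. Capitals mark the CArG box in the first, the G-box (CACGTG) in the second and site II elements (TGGGCC or TGGGCT) in the third. They mark overlapping matches to the GAGA repeat (GAGAGAGA) and a MYB core (CNGTTA) in the fourth, the CArG box in the fifth and the AC element (ACCTACC or ACCAACC or ACCTAAC) in the sixth. In the last pair they mark the I-box (GATAAG) and the L1 box (TAAATGCA or TAAATGTA). Either strand counts for all of them. A marked motif need not be more frequent in the class of its site. The CArG box was in 2.00% of flower-only and 3.96% of seed coat-only sites, and the I-box in 10.9% and 8.46%. For the GAGA repeat the shares were 3.70% and 3.66%.
MYB21, past the 3-prime end (nearest start AT3G27809), chr3:10311201-10311370, plus strand: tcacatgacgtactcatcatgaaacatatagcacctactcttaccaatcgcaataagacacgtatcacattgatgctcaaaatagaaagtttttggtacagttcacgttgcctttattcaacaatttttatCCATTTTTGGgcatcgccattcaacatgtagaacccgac
AT5G44260, 2261 bp past the start, chr5:17829001-17829150, plus strand: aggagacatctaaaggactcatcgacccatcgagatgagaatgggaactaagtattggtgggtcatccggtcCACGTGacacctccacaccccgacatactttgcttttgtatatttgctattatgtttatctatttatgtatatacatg
AOS, 3520 bp past the start, chr5:17096001-17096150, plus strand: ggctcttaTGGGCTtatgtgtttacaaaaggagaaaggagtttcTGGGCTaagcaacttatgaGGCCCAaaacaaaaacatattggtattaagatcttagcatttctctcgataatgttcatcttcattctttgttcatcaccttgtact
GL2, 311 bp upstream, chr1:30036541-30036750, plus strand: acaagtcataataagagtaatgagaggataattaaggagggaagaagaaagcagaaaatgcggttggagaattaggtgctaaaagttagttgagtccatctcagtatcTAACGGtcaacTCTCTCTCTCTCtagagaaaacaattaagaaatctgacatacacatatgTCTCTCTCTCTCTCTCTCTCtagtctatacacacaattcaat
GL2, 1131 bp upstream, chr1:30035741-30035910, plus strand: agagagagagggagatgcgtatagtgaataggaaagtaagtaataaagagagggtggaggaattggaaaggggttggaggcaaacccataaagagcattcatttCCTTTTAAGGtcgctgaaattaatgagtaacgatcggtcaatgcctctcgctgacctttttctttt
TT7, 2103 bp upstream, chr5:2558121-2558330, plus strand: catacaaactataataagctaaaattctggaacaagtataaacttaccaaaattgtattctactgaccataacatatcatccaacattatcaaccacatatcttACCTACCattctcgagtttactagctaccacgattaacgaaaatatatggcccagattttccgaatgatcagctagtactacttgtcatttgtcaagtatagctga
MYB61, 1386 bp upstream, chr1:3084641-3084790, plus strand: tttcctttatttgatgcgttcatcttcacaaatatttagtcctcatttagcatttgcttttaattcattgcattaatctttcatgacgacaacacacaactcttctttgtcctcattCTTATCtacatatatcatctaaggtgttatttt
URGT2, 158 bp upstream, chr1:7378241-7378530, plus strand: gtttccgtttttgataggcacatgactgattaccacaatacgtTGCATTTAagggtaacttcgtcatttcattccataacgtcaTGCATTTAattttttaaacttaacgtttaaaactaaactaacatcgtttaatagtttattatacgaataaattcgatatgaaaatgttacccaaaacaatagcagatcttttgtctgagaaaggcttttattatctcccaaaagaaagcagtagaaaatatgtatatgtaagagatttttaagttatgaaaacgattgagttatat

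Flower-only sites numbered 1297 (6.58% of all sites) and seed coat-only sites 1312 (6.66%), while 5540 sites (28.1%) were found in all 4 lists. Sites in a single list numbered 1666 for open flowers, 1837 for unopened flowers, 1258 at 4 DPA and 2169 at 7 DPA. Sites in both flower lists and in 1 of the seed coat lists were divided unequally, with 1039 shared with 4 DPA and 429 shared with 7 DPA. The counts depend on how many lists must hold or lack a site: flower-only sites numbered 3189 without open flowers, 3014 without unopened flowers, 2351 without 4 DPA and 1731 without 7 DPA. Seed coat-only sites numbered 2170, 2065, 3544 and 2597 in the same order.

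**Figure D1:**
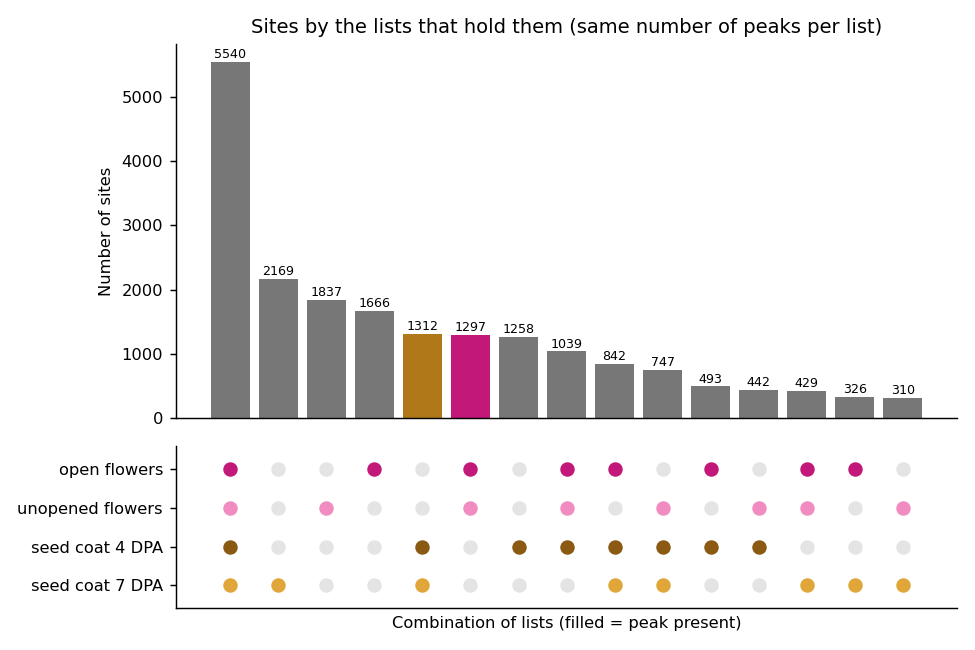
Number of sites (vertical axis) in each combination of the 4 peak lists, shown by the filled dots below each bar, with every list limited to 11693 peaks. The 1297 flower-only sites and the 1312 seed coat-only sites are coloured, and the bar of 5540 sites in all 4 lists is the highest.

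The earlier seed coat stage lay closer to flowers than the later one did. The Jaccard index, the base pairs shared by a pair of lists divided by the base pairs in either, was 0.370 between open flowers and 4 DPA, and 0.344 between the flower lists themselves. It was 0.334 between unopened flowers and 4 DPA. For 7 DPA it was 0.293 with open flowers, 0.278 with unopened flowers and 0.408 with 4 DPA. The mean within organs was 0.376 and between organs 0.319, a difference of 0.0576. Of the 3 ways to divide the 4 lists into pairs, the real division gave the largest difference (exact permutation, one-sided, p = 0.333, the smallest that 3 divisions allow). The sign rested on the 7 DPA list: without it the difference was -0.00746, and it lay between 0.0585 and 0.102 without any of the other lists. The part of list depth in this order was not tested. For scale, the index of these lists with 3 root lists of full depth, limited to the same number of peaks, lay between 0.175 and 0.221.

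The strongest peaks were mostly shared. Of the sites in the highest 10% of the open flower list, 90.6% were in the 4 DPA list and 90.1% in the 7 DPA list. Of the highest 10% at 4 DPA, 92.7% were in open flowers and 93.6% in unopened flowers. The highest 10% at 7 DPA stood apart, with 71.4% in open flowers, 74.9% in unopened flowers and 86.2% at 4 DPA. Side-only sites accordingly ranked low, at a median percentile of 38.8 for flower-only and 42.6 for seed coat-only sites, against 63.6 for sites in all lists. Both lists of the organ placed the site at or above percentile 75 for 47 flower-only and 92 seed coat-only sites.

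Flower-only is a statement about rank and not about absence of a seed coat peak. The whole 4 DPA list had a peak at 1052 of the 1297 flower-only sites (81.1%), at a median percentile of 47.1 in that list, where the limit of 11693 peaks fell at percentile 63.6. The whole 7 DPA list, of 13575 peaks against 32080 at 4 DPA, had a peak at 145 of them (11.2%). With all of its 26966 peaks, the pooled 7 DPA list had one at 793 (61.1%). Over all seed coat lists used, the pooled ones included, 83 flower-only sites (6.40%) had no peak within 100 bp. In the other direction, 1172 seed coat-only sites (89.3%) had no flower peak within 100 bp, but the flower lists hold few peaks beyond the limit, and a weak flower peak was not detectable there. A kept peak of the other organ lay within 100 bp of 64 flower-only and 74 seed coat-only sites.

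A pooled 4 DPA list from 2 other libraries, which took no part in the definition, followed the classes at that stage. The stage is that of a list in the definition, and no flower list lay outside the definition. Flower-only sites could therefore not be looked for in further flower nuclei. Limited to the same number of peaks, it held 84.5% of seed coat-only sites (95% exact binomial interval 82.4 to 86.4%), 10.6% of flower-only sites (8.94 to 12.4%) and 93.8% of sites in all lists (93.2 to 94.5%). With all of its 28300 peaks it held 75.6% of the flower-only sites. The intervals cover counting error over sites only. Root lists of full depth held between 24.7 and 27.4% of flower-only sites and between 17.4 and 23.6% of seed coat-only sites at the same number of peaks.

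**Figure D2:**
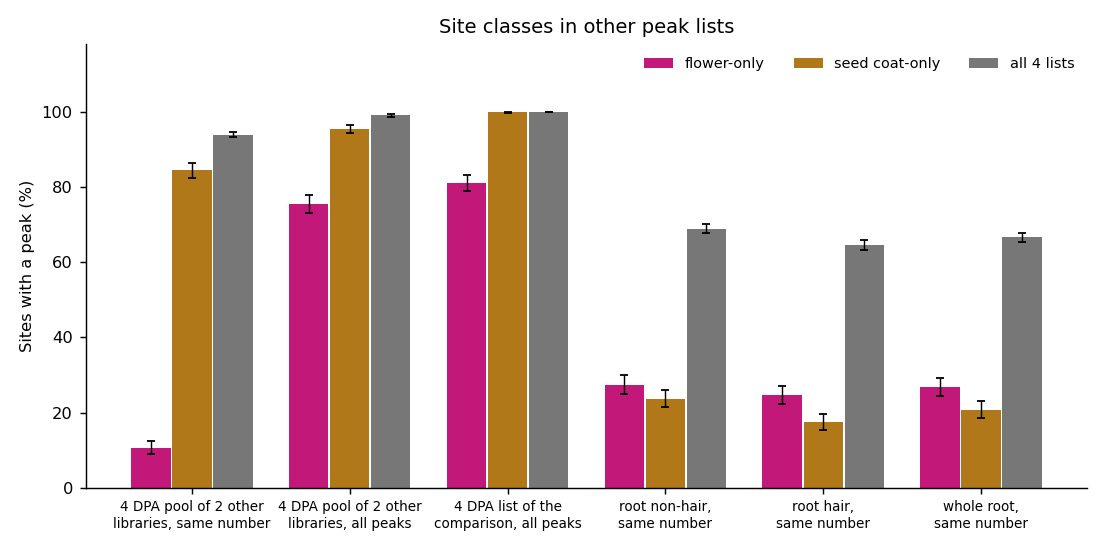
Percentage of flower-only, seed coat-only and shared sites with a peak (vertical axis, bars with 95% exact binomial intervals) in 6 other lists or list lengths. The pooled 4 DPA list held 84.5% of seed coat-only and 10.6% of flower-only sites at the same number of peaks, and 75.6% of flower-only sites with all peaks.

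The classes also differed in place and base composition. Within 1 kb of a transcription start site (TSS) lay 51.9% of flower-only, 64.7% of seed coat-only and 72.0% of shared sites. The share within 400 bp upstream of a TSS was 21.4% for flower-only, 30.7% for seed coat-only and 42.9% for shared sites. Intergenic DNA held 55.2%, 45.8% and 35.7% of them, in that order, and introns 4.24%, 7.24% and 2.56%. Mean GC content was 36.6% in flower-only, 34.2% in seed coat-only and 38.0% in shared sites.

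The highest flower-only site lay in the MYB21 region. MYB21 encodes a MYB factor of stamen filament and petal growth that acts downstream of jasmonate, and its annotated gene spans chr3:10305849-10310492. The site at chr3:10311201-10311370 ranked at percentile 99.6 in open and 99.8 in unopened flowers. It lies past the 3-prime end of MYB21, although the nearest TSS is that of AT3G27809, a gene inside the MYB21 span. In the whole 4 DPA list a peak there stood at percentile 30.3, and the whole 7 DPA list had none. From 4000 bp before to 8000 bp after the MYB21 start, 7 of 11 sites were flower-only. Of the rest, 2 were in all lists and none was seed coat-only. Among all sites, 6.58% were flower-only. The region was singled out after its values were seen. The flower-only site 84 bp upstream of the MYB21 start was at 88.0 in open and 35.6 in unopened flowers. The one 256 bp downstream was at 87.2 and 2.96, and the one 3706 bp downstream at 95.8 and 2.96. In unopened flowers 2.96 is the lowest kept height, 12, at which 692 of 810 peaks were kept. The open flower list ranked 6 of the 7 flower-only sites higher than the unopened one, the exception being the highest site. Genes nearest to the other 9 of the 10 highest flower-only sites included ARR9, a cytokinin response regulator, with 93.9 in open and 94.3 in unopened flowers. EXPA6, an expansin that loosens cell walls, was at 93.9 and 93.6. IAA7, an auxin response repressor, was at 90.3 and 95.6. LNG2, which promotes cell elongation, was at 88.0 and 97.1, and of the 10 it alone had no peak in any seed coat list. At FLA18 (97.8 and 99.6), a fasciclin-like arabinogalactan gene, and at AT3G20820 (97.0 and 89.0), a kept seed coat peak lay within 100 bp. IQD25 was at 89.8 and 97.4, PKS2, a gene of phytochrome signalling, at 95.5 and 90.5, and AT5G44260 at 88.6 and 97.1.

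The 3 highest seed coat-only sites all lay upstream of GL2, the homeodomain factor of epidermal fate whose promoter drove the fusion in the seed coat line. At chr1:30036541-30036750, 311 bp upstream of the TSS, the percentile was 99.3 at 4 DPA and 99.3 at 7 DPA. At 1131 bp upstream (chr1:30035741-30035910) it was 99.7 and 99.1, and at 2111 bp upstream (chr1:30034721-30034970, nearest TSS that of GC5) 99.9 and 99.2. Neither flower list had a peak at any of them at any rank. The site 311 bp upstream was also at 99.6 in root non-hair cells, captured with the same GL2 line, against 51.9 in whole root and 30.5 in root hair cells. The promoter in the transgene and the native promoter share their sequence, so their peaks cannot be told apart. At the other driving promoter the order was turned: 8 bp from the UBQ10 TSS the percentile was 97.5 in open flowers, 89.0 in unopened flowers, 67.9 at 4 DPA and 60.1 at 7 DPA. At ACT2, present in both lines, it was 79.3, 61.4, 86.5 and 79.1, so that the organs overlapped. The UBQ10 site was at 80.7 in the full-depth list of root non-hair cells, captured with the GL2 line, and at 56.7 in root hair cells. In the other non-hair lists it lay between 75.5 and 96.5. The whole root list of full depth and the pooled 4 DPA list, limited to the same number of peaks, had no peak there. The whole root lists not of full depth had one, at 96.4 and 80.8. A UBQ10 site 472 bp from the TSS stood at 99.4 in the full-depth whole root list. It was at 93.6 in open flowers, 81.8 in unopened flowers and 28.8 at 4 DPA, with no kept peak at 7 DPA.

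**Figure D3:**
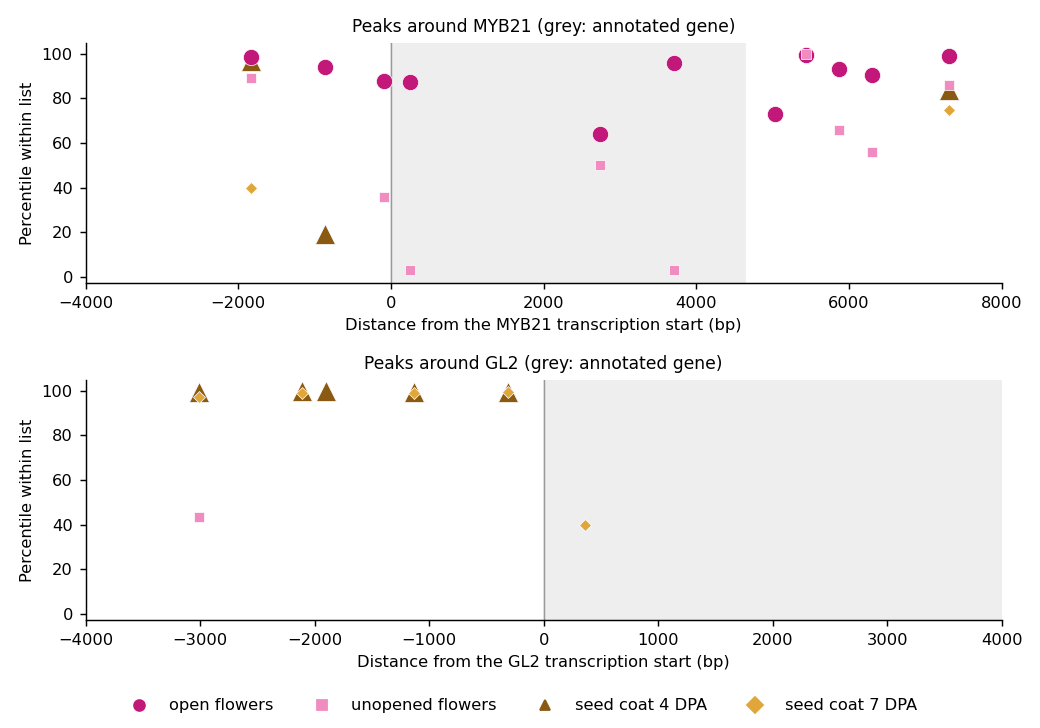
Within-list percentile (vertical axis) of each peak against distance from the start of MYB21 (upper panel) and GL2 (lower panel) in base pairs, with the annotated gene in grey and a symbol per list. Flower peaks lie throughout the MYB21 region, where 7 of 11 sites are flower-only, against 6.58% of all sites. Seed coat peaks above percentile 97 line the 3011 bp before GL2.

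Away from GL2, the highest seed coat-only sites were near bZIP70 (98.2 at 4 DPA and 99.0 at 7 DPA) and AT5G42232 (98.6 and 98.4). TLP5, a tubby-like protein gene, was at 96.3 and 98.3, and IAA31, an auxin response repressor, at 96.1 and 97.5. FAD5, a chloroplast fatty acid desaturase, was at 96.5 and 97.0, AT1G06980 at 98.0 and 92.7, and HAT9, a class II HD-ZIP factor, at 91.2 and 99.5. Sites near FAD5 and HAT9 had a kept flower peak within 100 bp. All of these exceeded percentile 90 in both seed coat lists.

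Of 27444 protein-coding genes, 11659 were the nearest to at least 1 site. Of these, 1161 (9.96%) had a flower-only site and 1187 (10.2%) a seed coat-only site, and 63 had both. These shares are the background for the gene lists below, and no list was tested. A gene with more sites has more chances of a side-only one. Genes with a site had 1.69 on average, those of the photosynthesis list 1.48, flavonoid 1.87, carpel and ovule 2.21, jasmonate 2.43 and mucilage 2.77.

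Genes of the mucilage-producing outer seed coat had seed coat-only sites in 8 of the 26 members with a site, and flower-only sites in none. Among the regulators, the highest after GL2 was MYB61, with 91.5 at 4 DPA and 98.6 at 7 DPA for the site 1386 bp upstream of its TSS. AP2, which acts in floral organ identity and in the seed coat, had a site 185 bp upstream at 74.4 and 98.4. MYB5, a partner of TTG1 in outer layer differentiation, was at 31.2 and 66.7. The homeobox gene KNAT7 was at 8.80 and 80.8. Among enzymes and transporters, the gene of the mucilage-modifying subtilase ARA12 had 3 seed coat-only sites, between 1265 and 2205 bp upstream. The nearest of them to the gene stood at 70.9 and 89.8. The site of URGT2, the transporter that brings UDP-rhamnose into the Golgi for pectin synthesis, was at 58.0 and 96.4. BXL1, a bifunctional xylosidase and arabinosidase, was at 26.0 and 20.4. Of the 12 seed coat-only sites of the list, 2 had a peak in the whole unopened flower list. These were at URGT2 (percentile 7.41) and BXL1 (12.6). For 7 of the 8 genes, all but BXL1, the best site stood at 66.7 or higher at 7 DPA. Without the 4 DPA list, 17 members had a seed coat-only and 6 a flower-only site, and with all nuclear peaks 14 and none. GL2, whose promoter drove the fusion, is 1 of the 8.

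Flavonoid and proanthocyanidin genes had seed coat-only sites in 5 of 15 and flower-only sites in none. The best was 2103 bp upstream of TT7, the flavonoid 3-prime hydroxylase, at 91.7 at 4 DPA and 97.2 at 7 DPA, with another 1313 bp upstream at 44.8 and 45.5. CHS, chalcone synthase and the entry enzyme of the pathway, was at 57.8 and 65.5. The whole unopened flower list had a peak at the CHS site (percentile 7.41) and at the TT7 site 1313 bp upstream (12.6). TTG2, a WRKY factor of tannin and mucilage, had one 186 bp upstream at 41.8 and 41.6. FLS1, flavonol synthase, was at 18.4 and 34.1 and had a kept flower peak within 100 bp, and TT9 was at 14.0 and 1.97. TT9 lies near the lower end of the kept peaks at 7 DPA. In the pooled 4 DPA alternative the count was again 5, and without the 4 DPA list it was 9. The other members with a site had no seed coat-only one. TT1 had a site in the 4 DPA list only, and TT2, TT8 and TT10 in the 7 DPA list only. TT16, TTG1, LDOX and F3H had a site in all 4 lists. At F3H both flower percentiles were higher (78.1 and 70.1 against 65.1 and 56.3). At TT16 both seed coat percentiles were higher (83.1 and 92.1 against 52.9 and 76.9). DFR had a site in open flowers only, at 23.4.

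Class IV HD-ZIP genes, epidermal regulators related to GL2, had seed coat-only sites in 3 of 6. Beside GL2 these were ATML1, at 78.2 and 70.5, and ANL2, at 62.1 and 0.252. At the ATML1 site the whole unopened flower list had a peak, at percentile 7.41. The list compiled for the endosperm also had seed coat-only sites in 3 of 6, near ZOU, SWEET12 and SWEET15. SWEET12, a sucrose exporter, was at 27.0 at 4 DPA and 88.4 at 7 DPA. ZOU, a regulator of endosperm breakdown, was at 38.0 and 52.0, and SWEET15 at 30.3 and 15.5. Endosperm is a neighbour of the seed coat inside the silique. Of the embryo and storage genes 6 of 19 had a site in any list, with 1 flower-only site, near LEC1, and no seed coat-only site. Silique wall genes had seed coat-only sites in 2 of 6, near SHP2 and RPL, and a flower-only site at FUL. Membership of a list does not show in which tissue a gene was active here, and SHP2 also acts in ovules. The part of neighbouring tissues in the seed coat lists was not tested.

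Carpel and ovule genes fell on both sides, with seed coat-only sites in 5 of 14 and flower-only sites in 2. STK, the MADS factor of ovule identity and seed coat tannin, had a seed coat-only site 1354 bp upstream at 87.1 and 93.5. WUS, which acts in ovule and stem cell patterning, had one 3766 bp past its start at 95.1 and 87.0. The ovule regulator BEL1 was at 27.5 and 78.5, NGA2 at 38.4 and 20.4, and NGA4 at 0.889 and 12.8. The flower-only sites belonged to HEC1 and HEC2, bHLH factors of the transmitting tract. HEC1 was at 41.3 in open and 61.4 in unopened flowers, and HEC2 at 55.5 and 56.1. In the whole 4 DPA list both had a peak below the limit, which fell at 63.6, HEC1 at 60.6 and HEC2 at 54.7, so with all nuclear peaks the flower-only count was 0. Without unopened flowers it was 4, and without 4 DPA 8 members had a seed coat-only site.

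Floral identity genes had flower-only sites in 2 of 17 and seed coat-only sites in 2. Without open flowers 7 members had a flower-only site, and without 7 DPA 4 did. A seed coat-only site was counted in 5 members without unopened flowers, in 4 without 4 DPA and in 5 without 7 DPA. With all nuclear peaks none had a flower-only site. FUL, a MADS factor of the inflorescence and valves, had a flower-only site 2376 bp upstream at 67.6 and 81.8, and JAG, a growth regulator of petals, had one at 2.19 and 10.1. AP2 and BOP2 had seed coat-only sites. At 9 bp from the AP3 start, a gene of petal and stamen identity, all 4 lists had a peak, at 78.1 in open flowers, 81.8 in unopened flowers, 75.2 at 4 DPA and 91.6 at 7 DPA. The organs overlapped there. Stamen maturation genes had MYB21 on the flower side and DAD1, a phospholipase of jasmonate synthesis, on the seed coat side at 41.2 and 1.97, out of 9. Of 18 anther and tapetum genes 5 had a site, and of 20 pollen genes 3. TPD1, a peptide signal of tapetum formation, had a seed coat-only site, and no member of either list a flower-only one. Of 8 petal, nectary and scent genes 3 had a site, and of 10 root hair genes 3, with no side-only site. The same held for the 6 constitutive genes with a site.

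Photosynthesis genes had flower-only sites in 10 of 31 members and seed coat-only sites in none. RBCS3B, a small subunit of Rubisco, had the highest value in open flowers, with 92.8 against 18.5 in unopened flowers. LHCA3, an antenna protein of photosystem I, showed the reverse order, with 19.6 and 83.9. PSAE1 and PSAH2, photosystem I subunits, were both at 47.3 and 73.7. The Calvin cycle gene SBPASE was at 44.3 and 43.5, and GLK1, a factor that switches on chloroplast genes, at 19.6 and 61.4. The antenna genes LHCB5, CAB1 and LHCB2.2 and the Rubisco gene RBCS2B made up the rest. All 10 sites had a peak in the whole 4 DPA list, so without the limit on list length the count was 0. Where the pooled 4 DPA list took the place of the other, it was again 10, and without unopened flowers it was 16. RBCS and CAB genes have near-identical copies, between which short reads may be split. Among the 18 sites of the list that all 4 lists held, both flower percentiles lay above both seed coat ones at 7 (38.9%), against 24.1% of all shared sites, and below at 3 (16.7%), against 17.1%.

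Jasmonate and wound response genes had flower-only sites in 6 of 21 and a seed coat-only site in 1. VSP2, a storage protein gene that jasmonate induces, had one at 82.7 in open and 43.5 in unopened flowers, and its close copy VSP1 one at 47.3 and 50.3. The WRKY genes of early defence were represented by WRKY33 at 64.2 and 18.5, and by WRKY40 with 3 sites, of which the best in open flowers stood at 50.2 and 27.1. AOS, an enzyme of jasmonate synthesis, was at 41.3 and 50.3, and JAZ6, a repressor of the response, at 1.67 and 2.96. JAZ2, another repressor, had seed coat-only sites at 81.3 and 74.6 and at 0.0599 and 10.0, the former with a kept flower peak within 100 bp. Of the 8 flower-only sites 7 had a peak in the whole 4 DPA list, and with all nuclear peaks of all lists 1 gene was counted. Without unopened flowers 11 genes had such a site, and without open flowers 10. The cuticle list had GPAT6 on the flower side and ABCG11 and LACS2 on the seed coat side, out of 14, and of the cell cycle genes CYCD3;1 had a seed coat-only site.

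**Figure D4:**
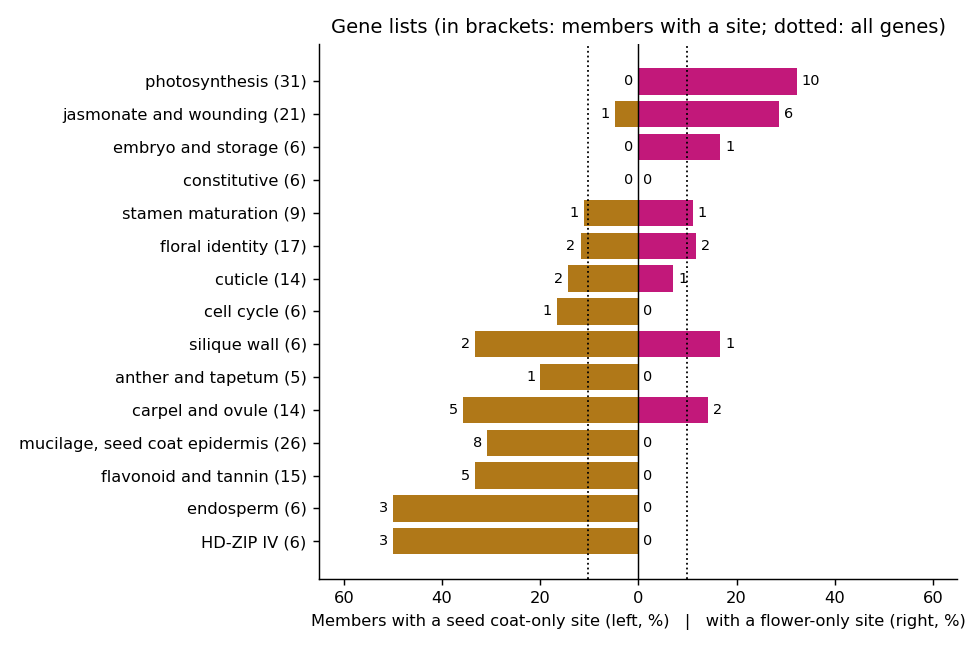
Percentage of members with a seed coat-only site (bars to the left) or a flower-only site (bars to the right), for gene lists with at least 5 members with a site. The number of such members stands at the bar end and the members with a site in brackets. Dotted lines give the shares of all genes with a site (10.2 and 9.96%). Photosynthesis (10 of 31) and jasmonate genes (6 of 21) extend to the right, and mucilage (8 of 26) and flavonoid genes (5 of 15) to the left.

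At the 5540 shared sites, the order of peaks was compared. Both flower percentiles lay above both seed coat percentiles at 1336 sites (24.1%) and below at 945 (17.1%). The widest gap on the flower side was 3193 bp upstream of RVE1, a MYB-like factor that links the clock to auxin, with 97.4 in open flowers, 92.7 in unopened flowers, 10.0 at 4 DPA and 7.41 at 7 DPA. AT3G28560 came next with 84.6, 85.9, 13.3 and 1.97, then AT1G52565 with 97.6, 79.5, 4.86 and 20.4. RAV1, a growth-repressing AP2/B3 factor, was at 94.6, 95.6, 24.0 and 18.0. FUM2, the cytosolic fumarase, was at 94.6, 94.3, 17.1 and 29.9, and MAPKKK17, a kinase of abscisic acid signalling, at 94.9, 90.5, 3.02 and 43.6. AT2G27660 and CRF10 completed the 8. On the seed coat side the widest gap was 1340 bp upstream of BLH2, a BEL1-like homeodomain gene, with 0.898 in open flowers, 10.1 in unopened flowers, 98.3 at 4 DPA and 99.6 at 7 DPA. ABCG12, a wax exporter, was at 23.4, 10.1, 96.4 and 99.5. SHP2, the MADS factor of ovules and valve margins, was at 5.49, 2.96, 82.6 and 85.6. LSH6, GBF1, AT5G60580, TKI1 and RTFL21 completed the 8. Carpel and ovule genes held 9 shared sites, with seed coat above at 5 (55.6%) and flowers above at 1. Mucilage genes held 17, with seed coat above at 4 (23.5%) and flowers above at 3 (17.6%). Flavonoid genes held 4, with 1 in each direction, and floral identity genes 13, with 3 in each direction. HD-ZIP IV genes held 3, with seed coat above at 1 and flowers above at none. The median difference of those was 14.4 percentile points, flower minus seed coat. Jasmonate genes held 14, with flowers above at 5 (35.7%) and seed coat above at 1.

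**Figure D5:**
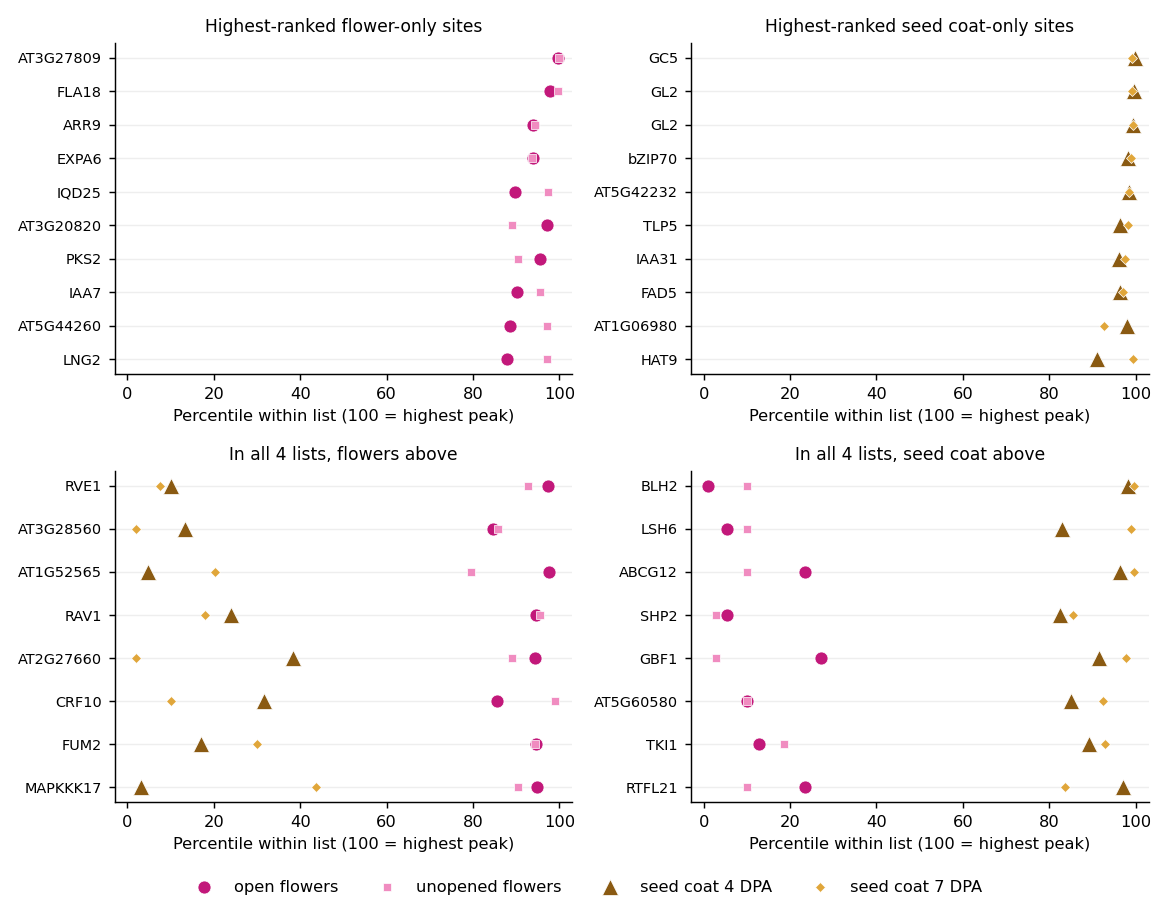
Within-list percentile (horizontal axis, 100 being the highest peak) in each list for the 10 highest flower-only and 10 highest seed coat-only sites (upper panels) and for the 8 shared sites with the widest gap in each direction (lower panels), named by the nearest gene. The gap is widest at RVE1 (97.4 and 92.7 against 10.0 and 7.41) and BLH2 (0.898 and 10.1 against 98.3 and 99.6).

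Motif letters were searched, in both orientations, in the middle 150 bp of every site. The site II element, a binding sequence of TCP factors, was in 26.1% of flower-only, 14.0% of seed coat-only and 45.5% of shared sites, against 29.3% of all 19707 sites. The G-box, bound by bHLH and bZIP factors, was in 11.6%, 6.40%, 19.2% and 12.2%, in the same order. Both were thus less frequent in side-only than in shared sites, and rarest in seed coat-only sites. In the other direction, the CArG box of MADS factors was in 2.00% of flower-only, 3.96% of seed coat-only, 3.00% of shared and 2.60% of all sites. The L1 box of class IV HD-ZIP factors was in 2.08%, 3.73%, 2.00% and 2.57%. The MYB core was in 13.6%, 16.8%, 20.4% and 17.4%. The W-box (TTGACC or TTGACT), bound by WRKY factors, was in 18.9%, 18.0%, 18.5% and 18.7%. The AC element was in 7.71%, 8.77%, 5.87% and 6.79%, and the I-box in 10.9%, 8.46%, 10.8% and 9.97%. The GAGA repeat was in 3.70% of flower-only, 3.66% of seed coat-only and 4.04% of all sites. The auxin response element (TGTCTC or TGTCGG), bound by ARF factors, was in 16.6% of flower-only, 13.6% of seed coat-only and 14.3% of all sites. Place and GC content differ between the classes as given above, and so does the median width, at 190 bp for flower-only, 170 bp for seed coat-only and 210 bp for shared sites. Their part in these shares was not tested.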

How the data were processed

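Nuclei were captured by biotin, treated with DNase I, and the small doubly cut fragments sequenced, per the labels' protocols. Bowtie 0.12.7 and TAIR10 are named in the submitters' processing notes, with no role given. The peak caller is not given in the sources used here. The authors deposited a signal, the whole-number height of each peak, and a −log10 p per peak, which is capped at 324 and served only as an alternative ranking. The number of reads is unknown. The 4 DPA library was deposited as 2 identical lists and used once. Tied heights were ordered by −log10 p and then position: at the limit, 692 of 810 unopened flower peaks of height 12 were kept.

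Peaks were merged at a gap of 0 bp, and an overlap of 1 bp placed a list at a site. Coordinates are TAIR10, counted from 1, and genes come from the RefSeq annotation of the same nuclear sequences. Python 3.11.15, numpy 2.4.6 and scipy 1.17.1 were used, and the procedure was tested on simulated lists. Sites were named by rule: the 10 highest of each side, up to 6 list members a direction, the 8 widest gaps a direction, and the promoters of the capture lines. Further members of the photosynthesis and mucilage lists, further sites of named genes, and AP3 were named after their values were seen. The comparison, the 19 gene lists and the 16 motifs were chosen with earlier results of these data known.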

Additional observations from a re-analysis of the deposited data

How the results depend on the processing

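Both side-only counts and the shared count stayed within 1.5 times their values when peaks up to 100 bp apart were merged, when a peak had to cover 50% of a site, when peaks were ranked by −log10 p, when the masked stretch was kept and when the pooled 4 DPA list was used. With the best 5000 peaks per list there were 628 flower-only, 677 seed coat-only and 1879 shared sites. With all nuclear peaks there were 277 flower-only, 3278 seed coat-only and 6482 shared sites. With only the other organ's lists at full length, an alternative chosen after seeing the data, there were 232 flower-only and 1250 seed coat-only sites. Leaving out 1 list at a time gave 1731 to 3189 flower-only, 2065 to 3544 seed coat-only and 5906 to 6539 shared sites, and a Jaccard difference of -0.00746 to 0.102. That index counts base pairs, so merging and covering settings gave no value for it. Of the 86 named sites, 57 kept their class with all peaks, 31 with 5000, and 77 or more under the 5 settings of the first sentence. JAG reversed with all peaks (-4.47 percentile points, flower minus seed coat), and over whole sites the motif shares of the GAGA repeat (-0.555 points) and LEAFY site (-0.0462 points). Each site was also assigned to every gene with a TSS within 1 kb. Of 11401 genes with a site, 6.75% then had a flower-only and 8.18% a seed coat-only site. A flower-only site was counted in 9 of 29 photosynthesis and 5 of 20 jasmonate genes. Seed coat-only sites were counted in 5 of 24 mucilage, 3 of 15 flavonoid (against 1 flower-only) and 2 of 5 carpel and ovule genes (against 1). They were also counted in 2 of 4 HD-ZIP IV, 1 of 5 silique wall and 1 of 4 endosperm genes. Of all 38 list counts, 14 moved by over 1.5 times. No paired analysis was possible because each group has a single list, and the labels name no plants, batch or date that would tie a flower list to a seed coat list.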

Other observations

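Gene families were also looked at by symbol, and those named here were chosen after their values were seen, from 91 families of at least 10 genes with a site. Flower-only sites were counted in 9.96% of all genes with a site. SAUR genes, small auxin-induced genes of cell expansion, had a flower-only site in 20 of 50 members and a seed coat-only site in 5. Several stood in a row on chromosome 1, among them SAUR63, with 96.2 in open and 79.5 in unopened flowers, AT1G29500, with 97.4 and 87.5, and SAUR68, with 95.2 and 70.1. Aux/IAA genes, repressors of auxin response, had one in 9 of 21 against 2 and TCP genes in 7 of 17 against 1. SAUR, Aux/IAA and TCP genes had 2.02, 3.10 and 3.00 sites per gene, against 1.69 for all genes with a site. SAUR genes have close copies in tandem. The whole 4 DPA list had a peak at 81.1% of all flower-only sites, and this share was not counted by family. The IAA7 site had a peak at percentile 16.5 in the whole 4 DPA list and at 7.14 in the whole 7 DPA list. At the SAUR68 site no seed coat list had one. At IAA2, 7 of the 8 sites were flower-only, from chr3:8181821 to chr3:8187950, with the best at 92.3 and 76.9. It was the gene with the most flower-only sites.

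BEL1-like homeodomain genes (BLH and RPL) lay on the other side. Of 11 members, 5 had a seed coat-only site, against 10.2% of all genes with a site, and none had a flower-only one. They had 2.09 sites per gene. RPL is also on the silique wall list above. The highest was BLH8, 727 bp upstream, with 84.5 at 4 DPA and 97.7 at 7 DPA. BLH4 was at 56.1 and 99.2 and BLH3 at 62.1 and 89.1, while RPL (30.3 and 4.72) and BLH2 (3.87 and 15.5, 3250 bp from its start) ranked low. The 7 DPA list placed 4 of the 5 sites higher than the 4 DPA list did.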
